A study of Mus musculus with 20 samples.

Results

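The genes Syce2, Wdr83, A230103J11Rik and Zfp791 lie within 251.0 kb of each other by their starts on mouse chromosome 8, and their striatal RNA levels were followed in 2 lines of mice and after 2 injections. They were chosen by symbol and position from the deposited count table, with their difference between the lines already known, as 4 of 26475 loci that carry a gene symbol. All 4 passed the filter on low counts, as did 17206 loci in all. Because the difference between the lines chose the genes, it is described here without a test for them, and tests are given for the response to amphetamine and for other genes.

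The study sequenced whole striatum of 20 male mice labelled Collaborative Cross, a population bred from several inbred founder strains, at about 6 months of age, with 5 mice in each group and 1 library per mouse. The groups were mice of a line selected for overactivity in the cage given d-amphetamine at 25 mg/kg, mice of that overactive line given saline, mice of the control line given d-amphetamine at 25 mg/kg, and mice of the control line given saline. Tissue was taken 2 hours after the injection. Amphetamine releases dopamine and other monoamines from nerve terminals, and the striatum receives the densest dopamine input of the brain. The labels state neither the founder alleles that each line carries on chromosome 8 nor how the mice within a line were related.

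Library totals were 31393788 to 53773028 counts. All 10 striatal projection neuron markers were measured, among them the dopamine receptor gene Drd1a at 179 to 303 CPM (counts scaled to library size with TMM) and Drd2 at 140 to 233 CPM. Summed levels of markers of other cells varied between groups and libraries. For cortical and hippocampal excitatory neurons the sum over 6 genes, none at 0 throughout, was 211 to 1022 CPM in overactive line amphetamine libraries, 129 to 334 CPM in overactive line saline, 623 to 895 CPM in control line amphetamine and 286 to 861 CPM in control line saline. For 6 oligodendrocyte markers, of which Mbp was listed at 0 in every library, the sum was 2987 to 3941 CPM and 2854 to 3778 CPM in the overactive line under amphetamine and after saline, against 2441 to 3590 CPM and 2141 to 3383 CPM in the control line. The sum over 4 choroid plexus markers was 9.40 to 877 CPM in overactive line libraries and 6.62 to 697 CPM in control line libraries. Their part in the differences below was not tested. In whole tissue, fewer cells that express a gene and less RNA per cell cannot be told apart.

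Syce2 encodes a protein of the central element of the synaptonemal complex, the ladder-like structure that holds paired chromosomes together in meiosis, and is known for its role in germ cells rather than in brain. Wdr83, also named Morg1, encodes a WD-repeat protein that acts as a scaffold in the ERK branch of MAP kinase signalling and that binds the oxygen-sensing prolyl hydroxylase encoded by Egln3. Zfp791 encodes a zinc finger protein of the C2H2 type. A230103J11Rik is annotated as a long non-coding RNA, and no function is assigned to it here.

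The genes were placed with the GENCODE M21 annotation on GRCm38, the build named in the submitters' processing notes. Syce2 spans positions 84872111 to 84888221 on the plus strand, with 1968 bases of exon. A230103J11Rik (85053160 to 85060460), Wdr83 (85075035 to 85081306) and Zfp791 (85108553 to 85123095) all lie on the minus strand, and their starts are 188.3, 209.2 and 251.0 kb from the Syce2 start. Each of the 4 genes overlaps a neighbour on the opposite strand. In GENCODE the exons of Wdr83 overlap those of Wdr83os by 539 bases at their 5' ends (19.1% of Wdr83 exon length). They overlap those of Dhps by 128 bases at their 3' ends (4.54%). The Wdr83 row of the deposited count table ends at 85080746, so most of the 539 bases lie outside its span. The exons of A230103J11Rik overlap those of Tnpo2 by 666 bases and those of Fbxw9 by 217. Syce2 and Gcdh overlap in span by 1829 bases and in exons by 0, and Zfp791 and the pseudogene Gm45317 overlap in span by 223 bases and in exons by 0. The loci listed for the counted rows have other spans than these. They are 84872110 to 84900082 for Syce2, past the end of Gcdh, and 85071756 to 85080746 for Wdr83, which covers all of Dhps (85071757 to 85075162). For A230103J11Rik the row spans 85036878 to 85067121, and for Zfp791 85106115 to 85123095. The A230103J11Rik row covers all of Tnpo2 (85036915 to 85057583) and nearly all of Fbxw9 (85060055 to 85067124). Which exons each row counted is not given, so the stretches that rows share may be longer than the exon overlaps above. The sources used here do not state whether counting used strand, so reads in the shared stretches cannot be told apart by gene.

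The promoter windows of the 4 genes are shown as a description, and the start of Wdr83 faces that of its neighbour Wdr83os. Each runs 5′ to 3′ from 250 bases before to 50 bases after a start site (RefSeq, GRCm38.p6). Capitals mark the GC box, whose letters are GGGCGG, the motif CCAAT, the E box, whose letters are CACGTG, and the motif TATAAA, searched on both strands. The windows lie at chr8:84871861-84872160 (plus strand), chr8:85080697-85080996, chr8:85060411-85060710 and chr8:85123046-85123345 (all minus strand).
Syce2: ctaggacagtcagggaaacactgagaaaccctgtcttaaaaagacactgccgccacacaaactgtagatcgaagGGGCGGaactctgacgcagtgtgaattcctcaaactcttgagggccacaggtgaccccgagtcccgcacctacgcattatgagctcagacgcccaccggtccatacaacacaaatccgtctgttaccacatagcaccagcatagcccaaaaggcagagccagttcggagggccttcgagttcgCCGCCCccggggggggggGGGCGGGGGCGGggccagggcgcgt
Wdr83: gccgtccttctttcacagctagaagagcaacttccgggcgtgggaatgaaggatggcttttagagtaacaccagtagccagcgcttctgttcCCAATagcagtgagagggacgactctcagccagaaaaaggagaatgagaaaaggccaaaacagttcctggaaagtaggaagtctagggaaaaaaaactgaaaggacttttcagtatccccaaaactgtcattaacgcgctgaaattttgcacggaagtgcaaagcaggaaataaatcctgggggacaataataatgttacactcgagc
A230103J11Rik: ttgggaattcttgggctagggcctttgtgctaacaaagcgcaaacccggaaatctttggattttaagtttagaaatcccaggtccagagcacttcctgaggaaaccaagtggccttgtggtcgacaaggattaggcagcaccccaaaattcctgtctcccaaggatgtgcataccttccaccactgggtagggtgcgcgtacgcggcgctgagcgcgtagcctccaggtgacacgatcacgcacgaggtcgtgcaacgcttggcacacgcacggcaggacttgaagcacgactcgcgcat
Zfp791: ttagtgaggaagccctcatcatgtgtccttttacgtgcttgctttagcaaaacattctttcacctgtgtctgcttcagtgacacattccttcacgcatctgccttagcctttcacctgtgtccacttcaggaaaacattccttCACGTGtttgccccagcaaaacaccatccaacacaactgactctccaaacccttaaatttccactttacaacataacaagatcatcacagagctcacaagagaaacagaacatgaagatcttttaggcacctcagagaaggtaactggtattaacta

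No marked motif stood in more than 1 of the 4 printed windows. The Syce2 window held 4 GC boxes, a motif found in 35.7% of 32851 mouse promoter windows of 300 bases. The Wdr83 window held 1 CCAAT motif (37.4% of windows), the Zfp791 window 1 CACGTG (7.15%), and the A230103J11Rik window none of the 4, including TATAAA (13.6%). CpG dinucleotides numbered 19 for Syce2, 9 for Wdr83, 20 for A230103J11Rik and 3 for Zfp791, against a median of 7. RefSeq gives a further start for Syce2, whose window held 5 GC boxes and 1 CACGTG, and for Zfp791, whose window held 2 TATAAA motifs, and these windows are not printed. With them, CACGTG stood in a window of both Syce2 and Zfp791. The Wdr83 window and that of Wdr83os share 284 bases, read from opposite strands, with starts 217 bases apart. From these RefSeq starts the genes run apart without overlap, whereas their GENCODE spans overlap. These matches describe letters and not bound sites.

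Syce2 was lower in the overactive line under both injections. Under amphetamine, overactive line libraries 1 to 5 held 1.23, 1.69, 1.46, 1.15 and 1.29 CPM, against 3.87, 3.004, 3.19, 2.94 and 3.89 CPM in control line libraries 1 to 5. After saline, overactive line libraries held 1.24, 1.24, 0.924, 1.03 and 1.51 CPM, against 3.23, 2.90, 4.14, 3.17 and 4.09 CPM in control line libraries. All 10 overactive libraries lay below all 10 control libraries. Such a separation of all 20 libraries, with the overactive line lower, was found for 0.128% of the loci tested, and since the gene was chosen for it nothing is read from that share. The log2 fold change of overactive over control line was -1.31 (SE 0.16) under amphetamine and -1.56 (SE 0.16) after saline, or 0.403 and 0.340 times the control level. Syce2 is a gene of low count, with 36 to 80 counts per overactive library and 94 to 194 per control library.

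Wdr83 went the other way and was higher in the overactive line. Under amphetamine, overactive line libraries 1 to 5 held 20.04, 23.3, 22.9, 19.8 and 22.1 CPM, against 11.3, 14.1, 16.1, 15.2 and 10.4 CPM in control mice. After saline, overactive line libraries held 21.1, 22.2, 22.8, 20.5 and 25.4 CPM, against 15.3, 18.5, 17.2, 17.8 and 12.2 CPM in control mice. Again no overactive library overlapped a control library, a separation in the higher direction held by 0.139% of loci. The log2 fold change was 0.69 (SE 0.12) under amphetamine and 0.47 (SE 0.12) after saline, or 1.61 and 1.38 times the control level. The control line was the more scattered, and its libraries 1 and 5 were the lowest of their group under each injection.

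Zfp791 was lower in the overactive line. Under amphetamine, overactive line libraries 1 to 5 held 7.78, 6.25, 5.25, 5.08 and 5.02 CPM, against 8.69, 7.77, 8.65, 8.42 and 9.72 CPM in control mice. The groups touched there through overactive library 1, which lay just above the lowest control library. After saline, overactive line libraries held 5.04, 5.45, 5.43, 5.53 and 4.82 CPM, against 8.55, 6.22, 8.45, 6.83 and 8.66 CPM in control mice, without overlap. The log2 fold change was -0.56 (SE 0.12) under each injection, or 0.679 times the control level under amphetamine and 0.678 times after saline.

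A230103J11Rik was lower in the overactive line by a smaller amount. Under amphetamine, overactive line libraries 1 to 5 held 6.43, 6.53, 6.58, 6.10 and 8.51 CPM, against 10.5, 8.95, 8.59, 8.62 and 11.02 CPM in control mice. Overactive library 5 stood apart from the other 4 and close to the lowest control libraries, and the groups did not overlap. After saline, overactive line libraries held 6.80, 7.81, 7.83, 6.25 and 7.31 CPM, against 9.46, 8.56, 7.23, 8.31 and 10.4 CPM in control mice, where control library 3 lay within the overactive range. The log2 fold change was -0.48 (SE 0.11) under amphetamine and -0.29 (SE 0.11) after saline. Tnpo2, a nuclear import receptor gene whose exons it overlaps and whose CPM is many times higher, had values of 0.04 (SE 0.04) and 0.00 (SE 0.04) in the same comparisons.

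Counted over the 4 genes, the groups did not overlap for Syce2, Wdr83 and A230103J11Rik under amphetamine and for Syce2, Wdr83 and Zfp791 after saline. Over all loci tested, 1.36% lay wholly lower and 1.57% wholly higher in the overactive line under amphetamine, and 1.9% and 2.36% after saline. These shares are printed as background only, since this contrast chose the genes. Ordered by group mean from the lowest, Syce2 held 1.19 ± 0.225 CPM in overactive saline, 1.36 ± 0.214 in overactive amphetamine, 3.38 ± 0.466 in control amphetamine and 3.51 ± 0.569 in control saline libraries (SD, n = 5 each). Zfp791 and A230103J11Rik likewise had both overactive groups below both control groups, and Wdr83 had them above. For each gene the groups of 1 line overlapped each other. Per kilobase of GENCODE exon, overactive line means under amphetamine were 7.67 CPM for Wdr83, 3.20 for A230103J11Rik, 1.99 for Zfp791 and 0.693 for Syce2. The exon lengths of the counted rows may differ. In control line amphetamine libraries Wdr83 and A230103J11Rik came closer, at 4.77 ± 0.878 and 4.48 ± 0.539 CPM per kilobase (SD, n = 5), closer than the SD of either.

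**Figure D1:**
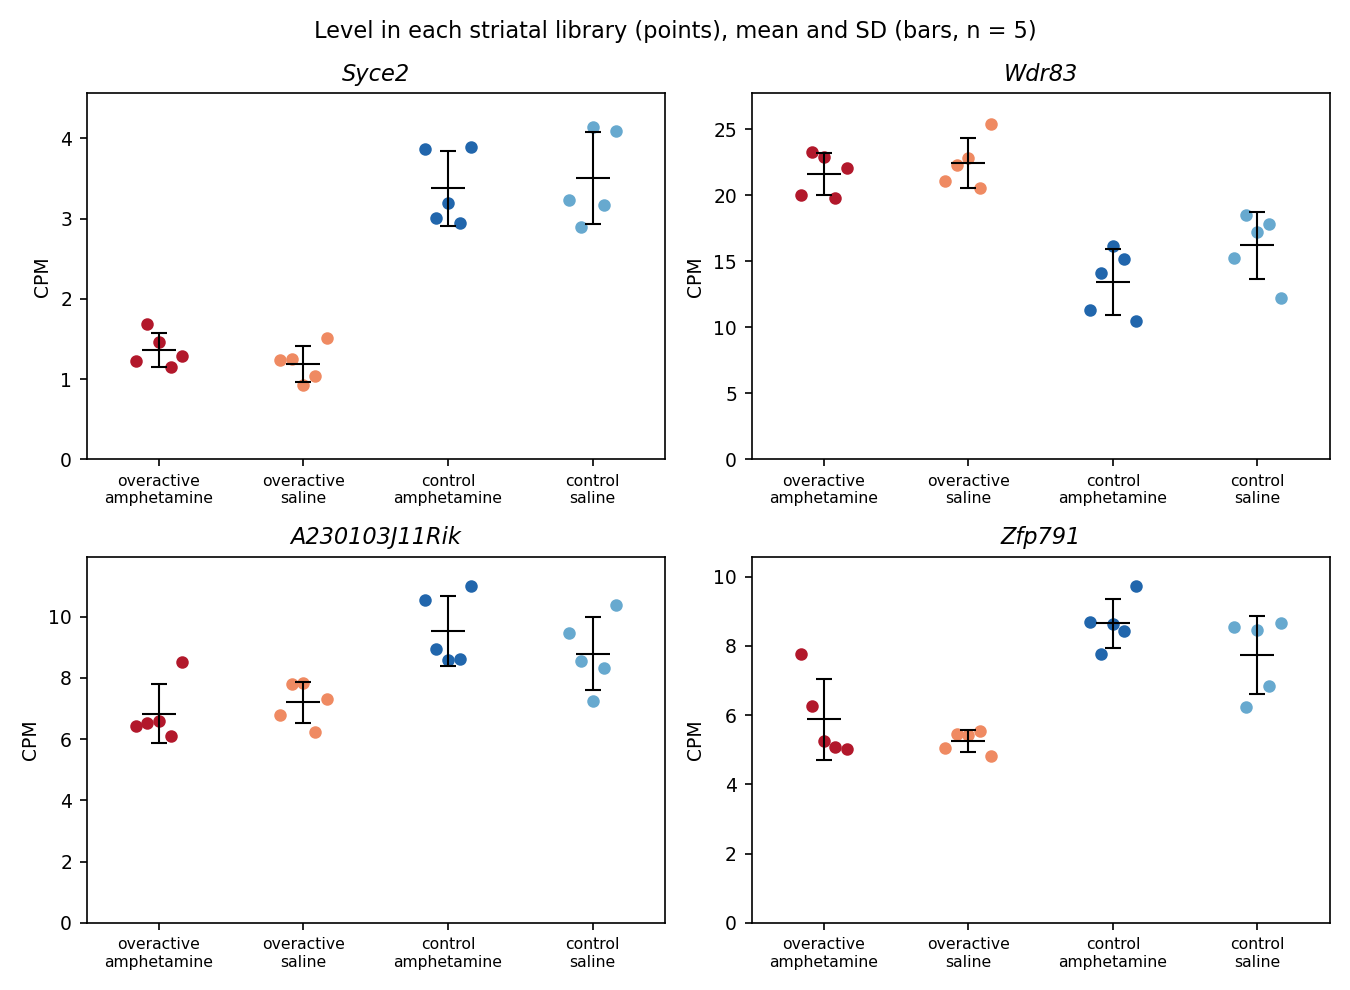
CPM (vertical axis, from 0) of each gene in the 4 groups (horizontal axis), where each point is 1 library and bars give mean and SD (n = 5). All 10 overactive line libraries lie below the control line for Syce2 (at most 1.69 CPM against at least 2.90) and above it for Wdr83 (at least 19.8 CPM against at most 18.5), while for A230103J11Rik and Zfp791 single libraries of the lines meet.

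The 4 genes also varied within groups. In the control line under amphetamine, libraries 1 and 5 were lowest in Wdr83 (11.3 and 10.4 CPM) and highest in Syce2 (3.87 and 3.89 CPM), in A230103J11Rik (10.5 and 11.02 CPM) and in Zfp791 (8.69 and 9.72 CPM). After saline, control libraries 1 and 5 were again lowest in Wdr83 (15.3 and 12.2 CPM) and highest in A230103J11Rik (9.46 and 10.4 CPM) and in Zfp791 (8.55 and 8.66 CPM). For Syce2 they held 3.23 and 4.09 CPM, with library 3 highest at 4.14 CPM. Over deviations from the 4 group means in 20 libraries, Pearson's r was -0.48 between Wdr83 and A230103J11Rik, -0.48 between Wdr83 and Zfp791, and -0.24 between Wdr83 and Syce2. It was 0.20 between Syce2 and A230103J11Rik, 0.25 between Syce2 and Zfp791, and 0.05 between A230103J11Rik and Zfp791. Within each library the 4 genes share its depth and tissue piece, and the values are a description. The library numbers of different groups name different mice.

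The surrounding loci were then compared between the lines. In a window that holds the 4 genes and 500 kb on either side of it, 36 other loci with a symbol passed the filter. These are the loci left once the 4 genes, chosen for their line difference, were set aside. A low number of calls among them is thus partly set by that choice, and the shares of all loci are printed as background only. None passed edgeR's quasi-likelihood test with Benjamini-Hochberg adjustment, either under amphetamine, where 0.453% of all loci passed (0.221% higher and 0.232% lower), or after saline, where 1.11% did (0.639% higher and 0.471% lower). At an unadjusted p under 0.05 there were 6 of 36 under amphetamine and 7 of 36 after saline (all loci 12.9% and 17.3%). After saline 2 of 36 lay wholly higher and 2 wholly lower in the overactive line (all loci 2.36% and 1.9%). Under amphetamine there were 0 and 0 (all loci 1.57% and 1.36%). DESeq2 called 0 and 2 of 36, against 1.87% and 4.44% of all loci, and limma-voom 0 and 0, against 0.616% and 1.73%. The 2 called by DESeq2 after saline, chosen after their values were seen, were Gpt2 (alanine aminotransferase, DESeq2 adjusted p = 0.0217) and Orc6 (a subunit of the origin recognition complex, DESeq2 adjusted p = 0.0431). The median log2 fold change of the 36 loci was 0.01 under amphetamine and -0.01 after saline, against 0.00 and 0.00 over all loci, and the median size without sign was 0.10 and 0.12, against 0.10 and 0.11.

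**Figure D2:**
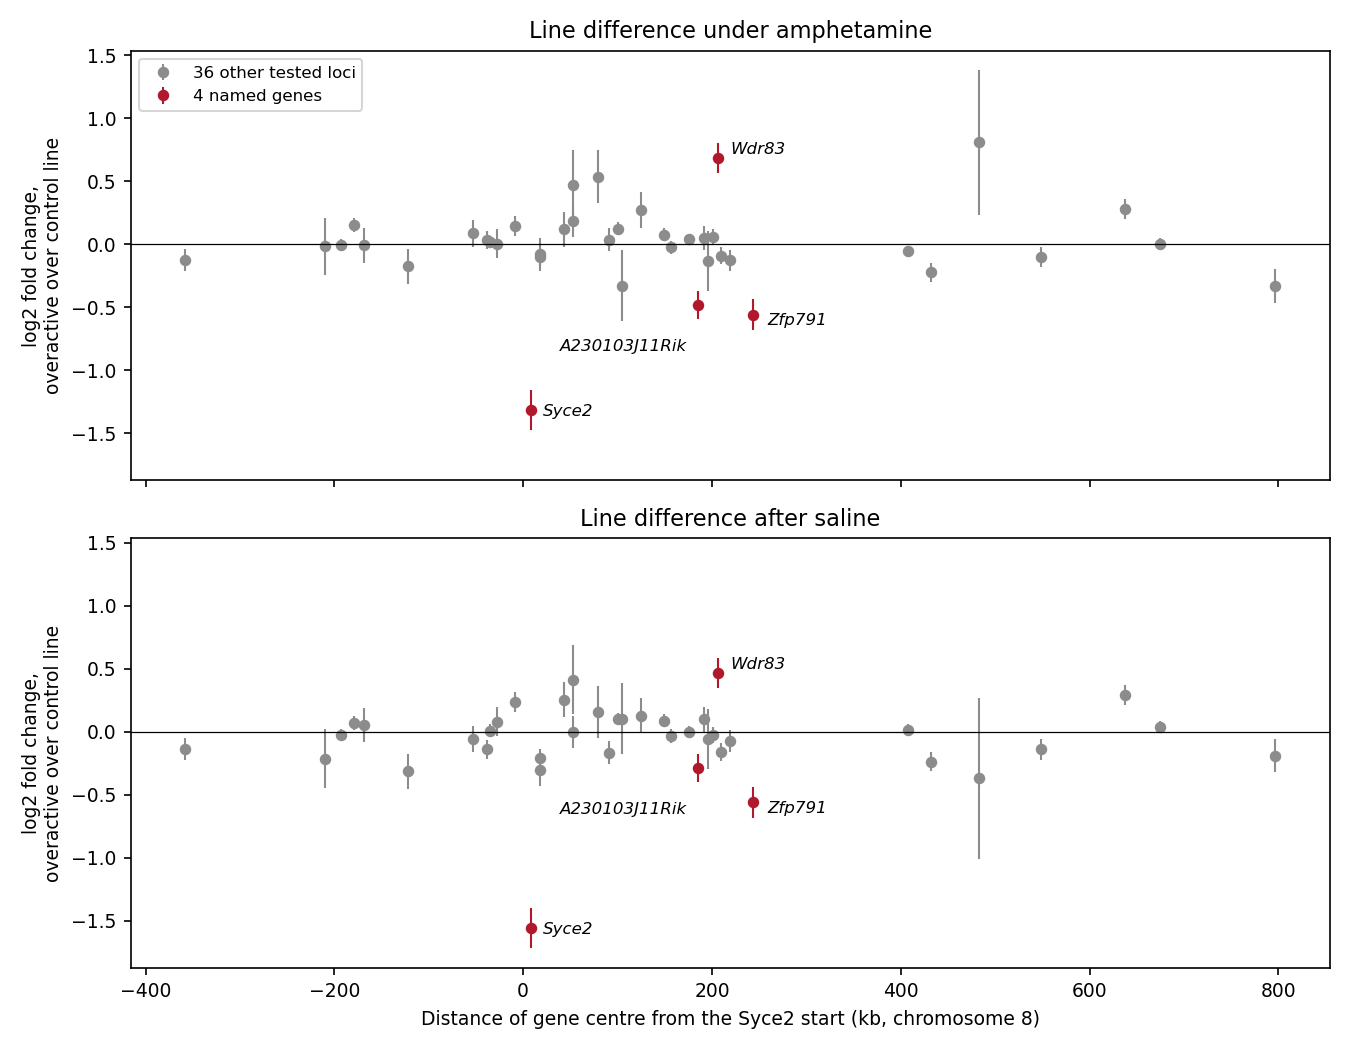
Log2 fold change of overactive over control line (vertical axis, bars are 1 SE) against the distance of each gene's centre from the Syce2 start (horizontal axis, kb) under amphetamine (upper panel) and after saline (lower panel), for the 4 named genes (red) and 36 other loci (grey). Syce2 stands lowest in both panels, at -1.31 and -1.56, and the 1 grey locus above Wdr83 in the upper panel is Mylk3 (0.81, SE 0.57), which averaged 0.416 CPM in overactive mice and 0.240 CPM in control mice.

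The nearest tested loci on each side were then set beside each gene. Farsa, the phenylalanine tRNA ligase subunit gene upstream of Syce2, had a log2 fold change of 0.15 (SE 0.08) under amphetamine and 0.24 (SE 0.08) after saline. After saline its 5 overactive libraries lay above the 5 control libraries, as for 2.36% of all loci. Gcdh, a mitochondrial enzyme gene of lysine breakdown on the other side, has 2 rows. The more abundant had values of -0.10 (SE 0.07) and -0.21 (SE 0.07). Its 5 overactive saline libraries lay below the 5 control saline libraries, as for 1.9% of all loci. The less abundant row had values of -0.08 (SE 0.13) and -0.30 (SE 0.13), with overlap under both injections. Reads were divided between the 2 Gcdh rows, so they are not independent measures. Their values were mostly not whole, while the sum of both rows and Syce2 was whole in 20 of 20 libraries. Both rows count among the 36 loci, and after saline both had an edgeR unadjusted p under 0.05 (0.0106 and 0.0309). Neither gene passed in any row (edgeR adjusted p 0.132 to 0.827). Their differences were smaller than that of Syce2, which was chosen for its difference. Fbxw9, an F-box gene beside A230103J11Rik, had values of 0.05 (SE 0.10) and 0.10 (SE 0.10). Beside Zfp791, the lysosomal mannosidase gene Man2b1 had values of -0.13 (SE 0.08) and -0.07 (SE 0.08), and the retromer gene Vps35 -0.06 (SE 0.04) and 0.02 (SE 0.04). None of these passed (edgeR adjusted p 0.552 to 0.873). Further out, after saline, Gpt2 held 95.9 ± 7.69 CPM in overactive mice and 78.3 ± 4.34 CPM in control mice (SD, n = 5, edgeR adjusted p = 0.0726), and Orc6 14.0 ± 0.783 CPM in overactive mice and 16.5 ± 0.713 CPM in control mice (edgeR adjusted p = 0.114).

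The position of Wdr83 allowed its reads to be set against those of both neighbours. Dhps, which encodes the enzyme that starts the hypusine modification of the translation factor eIF5A, runs tail to tail with Wdr83. Its overactive line libraries 1 to 5 held 22.2, 24.4, 24.9, 25.7 and 24.1 CPM under amphetamine, against 21.8, 22.8, 23.7, 24.3 and 24.2 CPM in control mice. After saline its overactive line libraries held 27.4, 22.2, 21.4, 22.6 and 22.7 CPM, against 25.2, 23.2, 22.9, 23.3 and 23.7 CPM in control mice. The lines overlapped under both injections, with log2 fold changes of 0.06 (SE 0.06, edgeR adjusted p = 0.743) and -0.02 (SE 0.06, edgeR adjusted p = 0.878).

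The deposited values show that reads were divided between these genes. Wdr83 held a whole number (within 0.01) in 0 of 20 libraries, while the sum of Wdr83 and Dhps was whole in 20 of 20. Counted as 1 row, the pair had a log2 fold change of 0.32 (SE 0.06) under amphetamine and 0.20 (SE 0.06) after saline, so the sum was also higher in the overactive line. Wdr83 made up 43.5% to 48.8% of the pair's counts in overactive line amphetamine libraries and 30.2% to 40.5% in control line amphetamine libraries. After saline it made up 43.5% to 52.8% in the overactive line and 34.1% to 44.4% in the control line, where the ranges met. Syce2 values were whole in 20 of 20 libraries.

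On the other side, Wdr83os, a small membrane protein gene, starts head to head with Wdr83. It corresponds by position to the row BC056474. Its libraries held 17.3, 19.0, 16.9, 19.5 and 16.6 CPM in the overactive line under amphetamine, against 17.7, 19.8, 19.7, 18.1 and 19.7 CPM in control mice, and it had a log2 fold change of -0.09 (SE 0.07, edgeR adjusted p = 0.605). After saline BC056474 held 17.7, 15.5, 17.1, 16.7 and 18.1 CPM in the overactive line, against 19.8, 17.3, 19.5, 17.4 and 21.1 CPM in control mice (log2 -0.16, SE 0.07, edgeR adjusted p = 0.239). Neither neighbour was higher in the overactive line beyond its spread. Wdr83 between them, chosen for its line difference, was higher in all 10 libraries. Dhps shares reads with Wdr83, so their levels are not independent, and nothing about Wdr83 alone is read from this contrast.

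**Figure D3:**
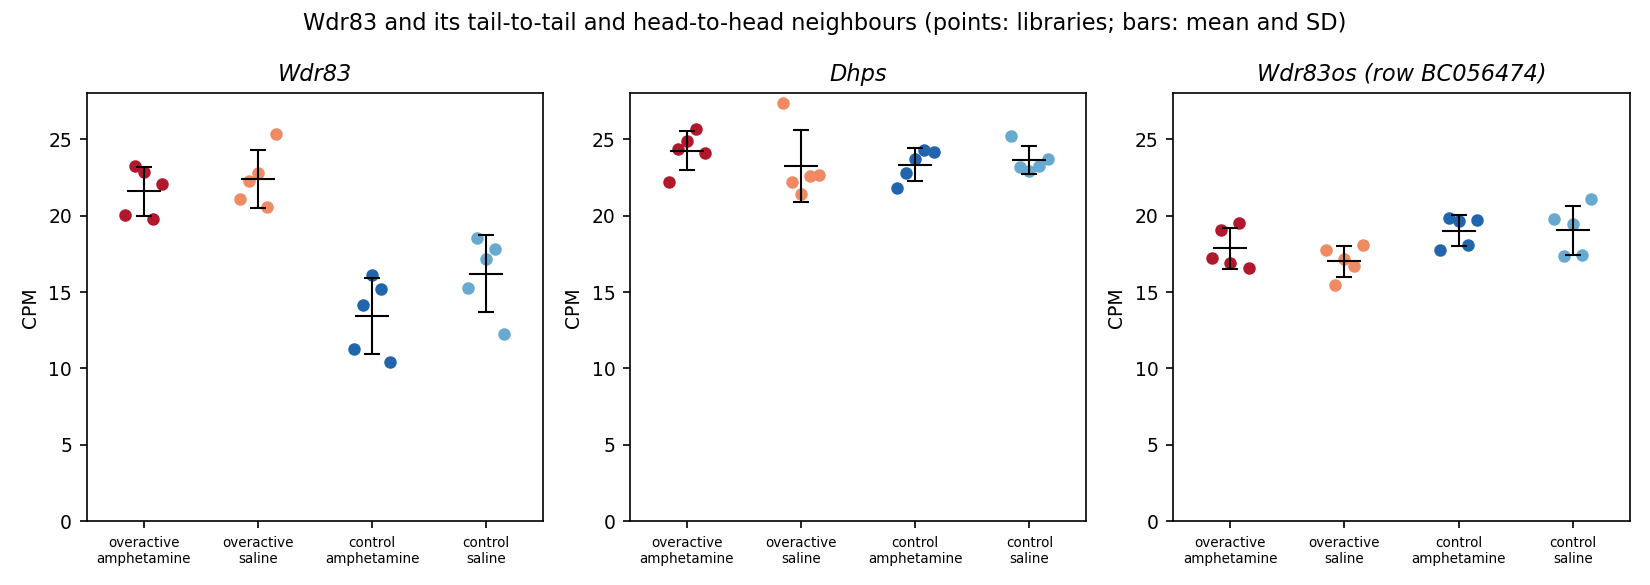
CPM (vertical axis, 0 to 28 in each panel) of Wdr83, Dhps and Wdr83os in the 4 groups (horizontal axis), where each point is 1 library and bars give mean and SD (n = 5). Group means of Dhps lie between 23.2 and 24.3 CPM and those of Wdr83os between 17.0 and 19.0 CPM, while those of Wdr83 are 21.6 and 22.4 CPM in the overactive line against 13.4 and 16.2 CPM in control mice.

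The contrast of amphetamine with saline was not used to choose the genes, although values of all 4 groups were, and it was tested within each line. None of the 4 genes passed in either line, as was so for 0% of all loci (0 of 17206 in each line). At an unadjusted p under 0.05 there were 0 of 4 in the overactive line (8.03% of all loci) and 1 of 4 in the control line (5.56%). The amphetamine and saline groups overlapped for all 4 genes in both lines, where 0.488% of loci lay wholly higher and 0.273% wholly lower under amphetamine in the overactive line, and 0.448% and 0.552% in the control line. In the overactive line Syce2 averaged 1.36 ± 0.214 CPM under amphetamine and 1.19 ± 0.225 CPM after saline (log2 0.19, 95% interval -0.14 to 0.53). Wdr83 averaged 21.6 ± 1.61 and 22.4 ± 1.88 CPM (log2 -0.05, -0.30 to 0.19), A230103J11Rik 6.83 ± 0.956 and 7.20 ± 0.681 CPM (-0.08, -0.31 to 0.16), and Zfp791 5.88 ± 1.18 and 5.25 ± 0.308 CPM (0.16, -0.10 to 0.42; all SD, n = 5). The edgeR adjusted p lay between 0.815 and 0.965. Every interval held 0, which leaves changes within its bounds unresolved.

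In the control line Wdr83 averaged 13.4 ± 2.47 CPM under amphetamine and 16.2 ± 2.54 CPM after saline (SD, n = 5). Its log2 fold change was -0.27 (95% interval -0.52 to -0.02, edgeR unadjusted p = 0.0354, adjusted p = 0.880), with overlapping groups, and it was the 1 gene of the 4 with an unadjusted p under 0.05. Syce2 averaged 3.38 ± 0.466 and 3.51 ± 0.569 CPM (log2 -0.05, -0.37 to 0.27). A230103J11Rik averaged 9.54 ± 1.15 and 8.79 ± 1.20 CPM (0.12, -0.12 to 0.36), and Zfp791 8.65 ± 0.704 and 7.74 ± 1.13 CPM (0.16, -0.10 to 0.41). The remaining edgeR adjusted p values lay between 0.894 and 0.974.

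The difference between the lines in the response to amphetamine was tested itself. Being also the line difference under amphetamine minus that after saline, it is not independent of the contrasts that chose the genes. It was 0.25 (SE 0.22) for Syce2, 0.22 (SE 0.17) for Wdr83, -0.20 (SE 0.16) for A230103J11Rik and 0.00 (SE 0.17) for Zfp791 on the log2 scale (edgeR adjusted p = 0.9999 for each, with 0% of all loci called). At an unadjusted p under 0.05 there were 0 of 4, against 2.96% of all loci. None was beyond the spread of the libraries. With DESeq2 and with limma-voom, 0 of the 4 genes were called in these 3 comparisons, where DESeq2 called 0.232% of all loci for the overactive line and 0% in the other 2, and limma-voom 0% in all 3. The 36 surrounding loci gave 0 calls in them by edgeR (4, 2 and 0 at an unadjusted p under 0.05 for the overactive line, the control line and their difference), by DESeq2 or by limma-voom.

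**Figure D4:**
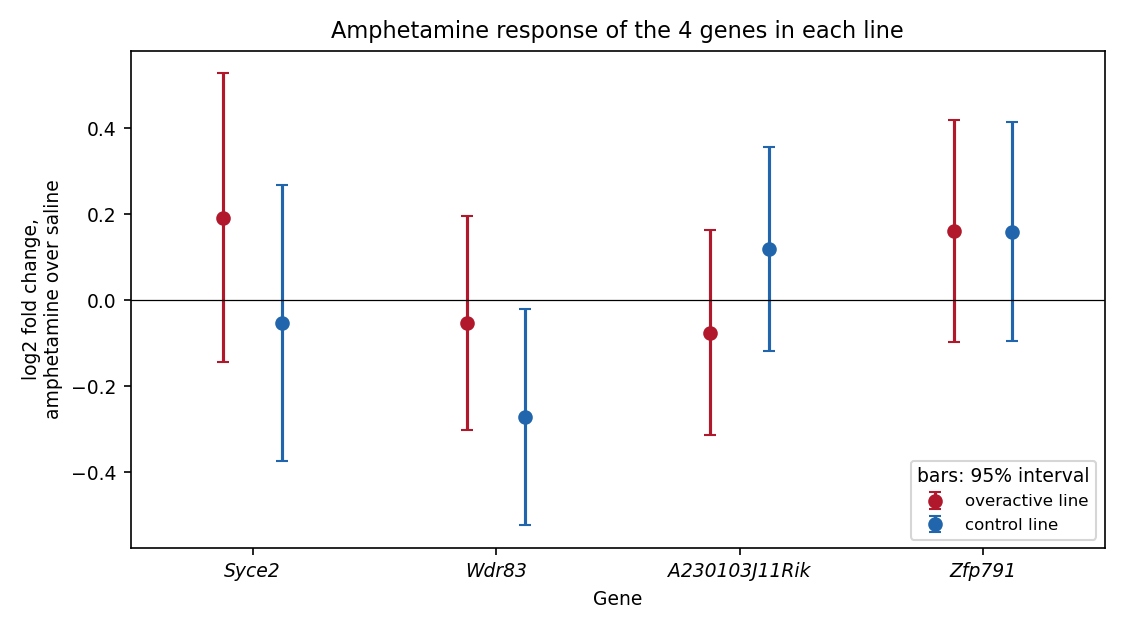
Log2 fold change of amphetamine over saline (vertical axis, bars are 95% intervals) for the 4 genes (horizontal axis) in the overactive line (red) and the control line (blue). All intervals but that of Wdr83 in the control line (-0.52 to -0.02) cross 0, and that gene's adjusted p was 0.880.

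Genes that work with the proteins of these loci were listed by function, with earlier results of these data known. The 25 tested genes of 4 lists gave 0 calls between the lines by edgeR (0.453% of all loci under amphetamine and 1.11% after saline), by DESeq2 or by limma-voom. At an unadjusted p under 0.05 there were 4 of 25 under amphetamine and 4 of 25 after saline, against 12.9% and 17.3% of all loci. Of 7 other synaptonemal complex genes 5 were tested, with a median log2 fold change between the lines of 0.14 under amphetamine and 0.16 after saline (4 and 3 positive). Sycp3, of the lateral elements, was measured at 12.8 to 21.0 CPM, and had values of 0.14 (SE 0.10) and 0.16 (SE 0.10). Sycp1, which spans the complex, held 0 to 1.90 CPM under amphetamine and 0 to 1.55 CPM after saline in the overactive line, against 0 to 0.174 CPM and 0 to 0.141 CPM in control mice, with fitted log2 fold changes of 3.27 (SE 1.43, edgeR adjusted p = 0.354) and 4.09 (SE 1.48, edgeR adjusted p = 0.166). In each injection group of the overactive line some libraries held 0 to 1 counts of Sycp1 and the others 51 to 93, so the lines overlapped. Syce1, of the central element like Syce2, held 0.0409 to 0.406 CPM and 0.201 to 0.323 CPM in the overactive line, against 0.225 to 0.991 CPM and 0.160 to 1.01 CPM in control mice (log2 -1.07, SE 0.52, edgeR adjusted p = 0.393, and -0.61, SE 0.53, edgeR adjusted p = 0.592). Syce3 and Tex12, also of the central element, were at most 0.0451 and 0.0747 CPM and were not tested. Of 5 germ cell markers, Tex101 reached at most 0.04996 CPM, Ddx4 held 0.792 to 6.92 CPM and Dazl 9.98 to 20.4 CPM. With Sycp1 and Sycp3 they summed to 27.7 to 42.6 CPM and 28.8 to 39.9 CPM in the overactive line under amphetamine and after saline, against 26.8 to 36.5 CPM and 28.7 to 40.4 CPM in control mice.

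Of 10 partners of Wdr83 in MAP kinase and hypoxia signalling all were tested, with medians of -0.03 under amphetamine and -0.06 after saline (3 of 10 positive in each). Lamtor3, which forms a complex with Wdr83 in ERK signalling, had values of -0.05 (SE 0.06) and -0.07 (SE 0.06), and Egln3 of -0.19 (SE 0.17) and -0.40 (SE 0.17, edgeR adjusted p = 0.239). The 4 genes of the hypusine pathway, Dhps among them, had medians of 0.03 and -0.03. Many C2H2 zinc finger proteins of mammals repress through a shared corepressor. Its 6 genes had medians of 0.02 and -0.03, with Trim28, the core of that complex, at -0.09 (SE 0.05) and -0.06 (SE 0.05). Over all loci the medians were 0.00 and 0.00. In the amphetamine comparisons the 25 genes also gave 0 calls by edgeR (0% of all loci in each line), by DESeq2 and by limma-voom. At an unadjusted p under 0.05 there was 1 of 25 in each line, against 8.03% and 5.56% of all loci.

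Loci whose levels followed each gene most closely were sought among 14958 loci with a mean of at least 1 CPM, by Pearson's r of log2 CPM over the 20 libraries. The libraries fall into 2 lines, so this r mostly ranks loci by their line difference, and it is given as a description beside r over deviations from the group means. Nearest to Syce2 was Ndrg4 (r = 0.96, deviations -0.31), further along chromosome 8 and listed at 0 in all 10 overactive libraries, followed by Cwc22 on chromosome 2 (0.91, deviations -0.18), also at 0 there, and by Gm6834, 9030617O03Rik and Bbip1 (0.87 to 0.88). Nearest to Wdr83 was 2610008E11Rik on chromosome 10 (r = 0.90, deviations 0.80), which averaged 47.5 and 49.0 CPM in the overactive line under amphetamine and after saline, against 34.1 and 40.6 CPM in control mice. Its other near loci were Sfmbt2, Mfsd7b, Lsm6 and Rph3al (0.83 to 0.87).

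Nearest to A230103J11Rik were Fam105a (r = 0.89, deviations 0.74) and Bccip (0.88, deviations 0.75), then Atf7ip and Zfp330 (both 0.85). Nearest to Zfp791 were Mpv17l (r = 0.86, deviations 0.51) and Kcnk2 (0.86, deviations 0.59), then Zfp825, Gon4l and Syce2 (0.84 to 0.86). Syce2 was the 1 locus among the 20 nearest loci (5 for each gene) that is also 1 of the 4 genes. Of the 20, 5 lay on chromosome 8 (25%, Syce2 among them), against 5.21% of the 14958 loci compared. Since this r mostly ranks loci by their line difference, nothing is read from that share.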

How the data were processed

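Striatal RNA of 20 mice was read as paired ends. Expected counts per locus stand in a table that the authors deposited, with 1 column per library, not scaled between libraries (93.9% of values whole within 0.01). The submitters' processing notes name mm10 and GRCm38. Aligner, counting tool and strand setting are not given in the sources used here, so how shared reads were divided is known from the values alone. The 10576 loci without a symbol (0.65% of counts) were left out.

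Expected counts were rounded and analysed in R 4.3.3 with edgeR 4.0.16: filterByExpr, TMM scaling and 1 quasi-likelihood model with 4 group means for 20 libraries. Tests were two-sided, with Benjamini-Hochberg adjustment over 17206 loci and a threshold of 0.05. CPM use TMM-scaled library sizes, and log2 CPM a prior count of 2. The model was tested on simulated data. No 2 libraries of a group agreed within sampling noise. Log2 fold changes of amphetamine over saline in the overactive line had a median SE of 0.11 over the loci tested.

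The genes, lists and tests were chosen with earlier results of these data known. The text names the 4 genes, the nearest tested loci, up to 12 neighbouring loci past the test, the 5 loci most like each gene (1 of them is not reported here) and up to 3 genes per list. Alternatives were RLE and upper quartile scaling, other filters, DESeq2 1.42.0, limma-voom (limma 3.58.1), a model of 2 groups at a time, a block on replicate number, loci without a symbol, leaving out each library and, added after seeing the data, Dhps and Wdr83 as 1 row. Positions and sequences were read with Python 3.11.15 and pandas 2.3.3, and figures drawn with matplotlib 3.10.9.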

Additional observations from a re-analysis of the deposited data

Results flagged for a closer look

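The level of A230103J11Rik in overactive line amphetamine library 5 was 8.51 CPM, far above the other 4 libraries of its group (6.10 to 6.58 CPM). It was the 1 case among 16 sets of 5 libraries (4 genes in 4 groups), and chance gives about 1 in 20. Without this library the log2 fold change of overactive over control line under amphetamine was -0.57, against -0.48 with it, and that of amphetamine over saline in the overactive line was -0.17, against -0.08.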

How the results depend on the processing

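The line differences of the 4 genes kept their direction under every alternative run, and moved by less than the spread between libraries except for Wdr83 counted with Dhps as 1 row (0.20 after saline and 0.32 under amphetamine, and 0.0062 in place of -0.05 for amphetamine in the overactive line). When each library was left out in turn, the log2 fold change of overactive over control line stayed between -1.66 and -1.47 for Syce2, 0.38 and 0.52 for Wdr83, -0.35 and -0.22 for A230103J11Rik and -0.63 and -0.52 for Zfp791 after saline. Under amphetamine these ranges were -1.40 to -1.26, 0.61 to 0.76, -0.57 to -0.43 and -0.68 to -0.51. No gene was called for amphetamine or for the difference in response under any alternative. The difference in response of Zfp791 (0.00) changed sign with a filter of at least 1 CPM in 5 libraries (-0.00051), limma-voom (-0.014), the replicate block (-0.015) and single libraries left out (-0.12 to 0.070), as did the amphetamine value of Syce2 in the control line (-0.11 to 0.014 with single libraries left out).

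The number of loci called between the lines, used as background, was 191 after saline and 78 under amphetamine with edgeR. It was 764 and 322 with DESeq2 and 288 and 135 with loci without a symbol kept. Limma-voom called 297 after saline, and under amphetamine the replicate block gave 51 and the 2 groups alone 50. DESeq2 called 40 loci for amphetamine in the overactive line, none of them among the 4 genes, where edgeR called 0 (1382 at an unadjusted p under 0.05). Leaving out single libraries gave 67 to 240 after saline and 23 to 88 under amphetamine. After saline the count fell by over 1.5 times without control saline library 1 (124), 2 (115), 3 (101) or 5 (67) or overactive saline library 3 (100) or 4 (75). Under amphetamine it did so without control library 3 (35), 4 (43) or 5 (38) or overactive library 2 (23). Among the 36 neighbouring loci 1 was called after saline when overactive amphetamine library 3 was left out, Gpt2 (edgeR adjusted p = 0.0474).

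Samples that share a replicate number did not pair: the correlation of their deviations was above 0.1 in 10 of 30 pairs (-0.23 to 0.25), and with the replicate block the line differences were -1.56, 0.48, -0.28 and -0.55 after saline for Syce2, Wdr83, A230103J11Rik and Zfp791. Counts of 36 to 194 per library limit the precision of Syce2.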
